A study of Mus musculus with 9 samples.

Results

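The blood-retinal barrier genes described here are 10 genes of retinal vessel endothelium, not all restricted to it. They were taken as the rows of the deposited expression table whose symbol matched a fixed list. They are the transporters Slco1a4, Slco1c1, Abcb1a, Abcg2 and Mfsd2a, the junction genes Cldn5, Ocln and Tjp1, and the vesicle genes Cav1 and Plvap. Each symbol matched 1 of the 25108 entries, and all 10 were among the 15678 that had at least 0.5 FPKM in at least 3 libraries. FPKM is a fragment count divided by the length of the gene and by the mapped total of its library. The list was drawn up from knowledge of the barrier and with earlier results of these data known.

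RNA was sequenced from whole retinas of C57BL/6 mice on postnatal day 17, in 9 libraries of 3 groups with 3 libraries each. One group was wild type in room air (RA WT), another was wild type with oxygen-induced retinopathy (OIR WT), and the last lacked IL-19 and had the same retinopathy (OIR KO). In this model newborn pups breathe high oxygen, which halts and prunes the growing retinal vessels, and on return to room air the underperfused tissue becomes hypoxic and sprouts new vessels. Room-air knockouts are not analysed here, and the genotypes could therefore be compared only in retinopathy. The labels give neither the make of the knockout allele nor the animals behind each sample. The p-values therefore refer to spread among the sequenced samples, part of which may be technical, and in OIR WT all of it.

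The inner blood-retinal barrier is the wall of the retinal capillaries. Its endothelial cells are sealed to each other by tight junctions, carry out little transport in vesicles, and move selected solutes with uptake carriers and efflux pumps. In the vessels of the brain and retina this state depends on Norrin and Wnt signals that act through beta-catenin, and on contact with pericytes and glia.

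The depth of the libraries is unknown, since FPKM values keep no read counts, and libraries of a group correlated at 0.974 to 0.985 across genes. Il19, the gene targeted in the knockout, was listed at 0 in 8 of 9 libraries and at 0.0406 FPKM in RA WT 1, so it gave no check of the genotype labels. The rod genes Gnat1 and Nrl were at 2764 to 4115 and 252.2 to 329.6 FPKM, as the label retina requires. Of the Y-linked genes, all 4 examined (Uty, Kdm5d, Eif2s3y, Ddx3y) had values of 0 in RA WT 2 and OIR KO 1, and in RA WT 3 Ddx3y was at 6.80 FPKM against 12.9 to 15.7 in the other 6. These 3 libraries are called low in Y-linked genes below. Of these, 2 belong to RA WT, 1 to OIR KO and none to OIR WT. The libraries of RA WT, and those of OIR KO, therefore did not all come from the same animals. For OIR WT these genes leave this unknown.

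The stretches of 250 bases before the annotated start of 4 of the genes are printed here because these genes give the main patterns below. Slco1a4 and Slco1c1 had the lowest retinopathy levels relative to room air. Mfsd2a and Cldn5 were higher in every knockout than in every wild-type retinopathy library, also relative to the mean of 22 endothelial genes. The separation relative to endothelial genes did not hold with every reference. Sequences are from RefSeq on GRCm38.p6 and run 5' to 3' on the strand of the gene. They lie at chr6:141856221-141856470 on the minus strand (Slco1a4), chr6:141524104-141524353 on the plus strand (Slco1c1), chr4:122961189-122961438 on the minus strand (Mfsd2a) and chr16:18776597-18776846 on the plus strand (Cldn5). Capitals mark CTTTGA, a core bound by the TCF/LEF partners of beta-catenin, and ACGTG and GCGTG, the core of the hypoxia response element. Each was searched on both strands, so the reverse complement is capitalised too.
Slco1a4: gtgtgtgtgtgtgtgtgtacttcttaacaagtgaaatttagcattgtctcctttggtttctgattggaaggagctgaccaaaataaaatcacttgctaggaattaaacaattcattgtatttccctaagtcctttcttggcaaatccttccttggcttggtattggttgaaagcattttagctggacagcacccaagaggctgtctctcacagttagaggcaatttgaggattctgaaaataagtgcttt
Slco1c1: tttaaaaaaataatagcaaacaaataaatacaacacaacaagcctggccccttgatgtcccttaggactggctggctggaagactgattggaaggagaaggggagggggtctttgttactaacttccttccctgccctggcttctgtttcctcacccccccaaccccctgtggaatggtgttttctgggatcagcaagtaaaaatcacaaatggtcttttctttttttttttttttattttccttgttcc
Mfsd2a: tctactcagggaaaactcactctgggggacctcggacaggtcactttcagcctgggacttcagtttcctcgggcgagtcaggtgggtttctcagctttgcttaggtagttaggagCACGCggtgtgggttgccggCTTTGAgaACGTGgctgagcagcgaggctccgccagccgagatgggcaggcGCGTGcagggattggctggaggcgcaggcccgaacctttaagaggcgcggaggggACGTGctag
Cldn5: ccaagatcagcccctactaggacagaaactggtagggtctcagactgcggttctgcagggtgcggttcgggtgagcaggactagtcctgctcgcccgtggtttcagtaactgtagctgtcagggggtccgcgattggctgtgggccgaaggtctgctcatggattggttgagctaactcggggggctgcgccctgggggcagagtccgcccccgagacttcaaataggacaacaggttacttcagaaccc
The Mfsd2a stretch held 1 CTTTGA, 2 ACGTG and 2 GCGTG, while none of these exact strings occurred in the other 3. Other forms of the TCF/LEF core were not searched, such as CTTTGT, which the Slco1c1 stretch holds. Of 32851 RefSeq start sites, 13.8% had CTTTGA, 16.6% had ACGTG and 28.2% had GCGTG in the same window, so single matches are common. GC content was 39.2% for Slco1a4, 42.8% for Slco1c1, 61.6% for Mfsd2a and 59.6% for Cldn5, against a median of 52.4% over all start sites. Of the 10 genes, 9 were in the RefSeq table. Plvap was not. A match is a description of the letters, and no match says nothing about binding elsewhere.

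In RA WT retinas the members spanned more than an order of magnitude in FPKM, a scale that allows comparison between genes because it is divided by gene length. Tjp1 (25.5 ± 3.33 FPKM, SD, n = 3) and Cldn5 (24.3 ± 5.88) stood highest with overlapping ranges, followed by Cav1 (14.0 ± 0.495) and Slco1a4 (7.002 ± 0.644). Abcg2, Mfsd2a, Slco1c1, Abcb1a and Plvap followed at means of 4.79 to 2.56 FPKM, each overlapping its neighbour, and Ocln was lowest at 1.64 ± 0.516. In OIR WT the order changed at its lower end. Plvap came next after Cav1, above Abcg2, while Slco1a4 and Slco1c1 had the 2 lowest means, at 0.864 ± 0.208 and 0.426 ± 0.177 FPKM. The Slco1a4 range overlapped that of Abcb1a, its neighbour above. In OIR KO, Cldn5 stood first at 40.7 ± 4.03 FPKM, above every Tjp1 value, and Slco1a4 and Slco1c1 again had the 2 lowest means.

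**Figure D1:**
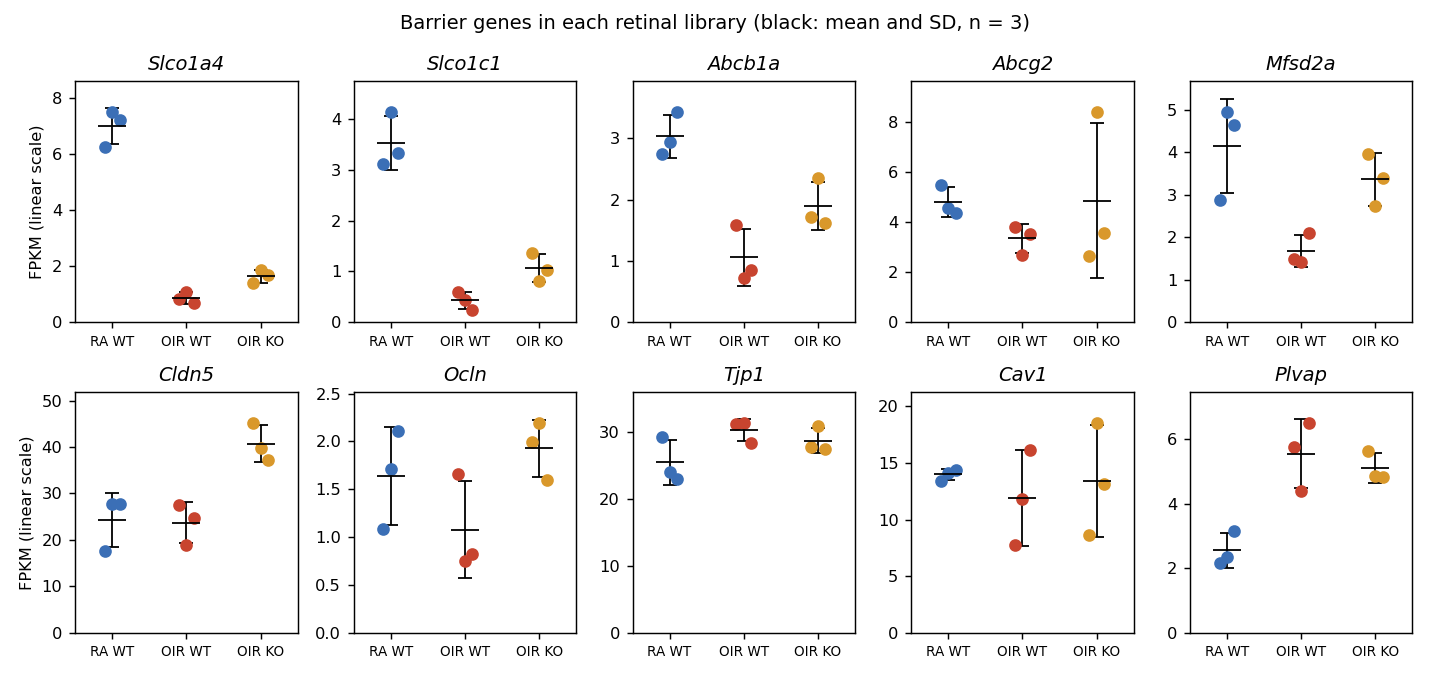
FPKM of each of the 10 genes in the 9 libraries, on a linear axis, with a point for each library and black bars for the group mean and SD (n = 3). Slco1a4 and Slco1c1 drop from RA WT to OIR WT with no overlap, Plvap lies higher in both retinopathy groups, and Cldn5 is highest in OIR KO.

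How barrier gene expression differs with retinopathy in wild-type mice is addressed by OIR WT and RA WT. Of the 10 genes, 4 fell (Slco1a4, Slco1c1, Abcb1a and Mfsd2a), 1 rose (Plvap) and 5 did not pass the test (limma, Benjamini-Hochberg adjusted over all 15678 genes). Among all genes 16.0% passed, 7.92% downward and 8.04% upward. The median log2 change of the members was -0.46, against 0.02 for all genes. The groups did not overlap for 5 members on the lower side and 1 on the higher side, against 17.2% and 17.8% of all genes. In whole retina, fewer cells of a type and less RNA per cell cannot be told apart.

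Slco1a4 (ENSMUSG00000030237, chr6:141805440-141856199, minus strand) encodes an organic anion uptake carrier of brain and retinal capillaries. It was at 6.27, 7.49 and 7.24 FPKM in RA WT 1 to 3 and at 0.819, 1.09 and 0.682 FPKM in OIR WT 1 to 3. The groups lay far apart, and the mean was 8.11-fold lower in retinopathy. On the log2(FPKM + 0.5) scale used for all tests, which understates the change of low genes, Slco1a4 fell by 2.47 (SE 0.155, adjusted p = 0.000111). Only 0.44% of the genes tested had a larger change in either direction.

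Slco1c1 (ENSMUSG00000030235, chr6:141524368-141570177, plus strand) encodes a carrier that takes up thyroxine. The 2 carrier genes are separated by 235262 bases. Slco1c1 was at 3.12, 4.13 and 3.33 FPKM in RA WT 1 to 3 and at 0.593, 0.445 and 0.240 FPKM in OIR WT 1 to 3. Every retinopathy value lay below every room-air value, the means differed 8.29-fold, and Slco1c1 fell by 2.13 (log2, SE 0.193, adjusted p = 0.000495). Near copies of the carriers were scarce: Slco1a5 was at 0.0374 to 0.158 FPKM and Slco1a6 at no more than 0.02 FPKM. Of the Slco family, 14 genes were in the table and 6 were expressed enough to be tested. The only 2 that fell were Slco1a4 and Slco1c1, and none rose.

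Mfsd2a (ENSMUSG00000028655, chr4:122946850-122961188, minus strand) carries lipids bearing docosahexaenoic acid into the retina and brain and limits vesicle traffic through the endothelium. Its levels were 2.87, 4.94 and 4.64 FPKM in RA WT 1 to 3 and 1.50, 1.42 and 2.10 FPKM in OIR WT 1 to 3. All retinopathy values were lower, by 2.48-fold in the mean, and Mfsd2a fell by 1.08 (log2, SE 0.213, adjusted p = 0.0101).

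The efflux pumps differed in their calls. Abcb1a (ENSMUSG00000040584, chr5:8660077-8748575, plus strand) encodes P-glycoprotein, which returns drugs and other lipophilic molecules to the blood. It was at 2.74, 2.94 and 3.42 FPKM in RA WT 1 to 3 and at 1.59, 0.719 and 0.858 FPKM in OIR WT 1 to 3. The groups did not overlap, the mean was 2.87-fold lower in retinopathy, and Abcb1a fell by 1.22 (log2, SE 0.213, adjusted p = 0.00633). Its near copy Abcb1b was at 0.258 to 1.02 FPKM over the 9 libraries, with the highest value in OIR WT 2. How fragments were divided between the copies was not tested. Abcg2 (ENSMUSG00000029802, chr6:58584523-58695676, plus strand), the breast cancer resistance protein pump, was at 5.48, 4.54 and 4.34 FPKM in room air and at 3.81, 2.70 and 3.52 FPKM in wild-type retinopathy. Its groups did not overlap either, but the log2 change of -0.47 (95% interval -1.21 to 0.28) did not pass (adjusted p = 0.381).

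None of the 3 junction members passed. Cldn5 (ENSMUSG00000041378, chr16:18776847-18778262, plus strand), the dominant claudin of central nervous system endothelium, was at 17.5, 27.7 and 27.7 FPKM in RA WT 1 to 3 and at 27.5, 18.8 and 24.7 FPKM in OIR WT 1 to 3. These ranges coincided, with a log2 change of -0.03 (95% interval -0.46 to 0.41, adjusted p = 0.948). Ocln (ENSMUSG00000021638, chr13:100496507-100552718, minus strand), the tight junction membrane protein occludin, was at 1.09 to 2.11 FPKM in room air and 0.748 to 1.66 FPKM in OIR WT, with a log2 change of -0.46 (95% interval -1.01 to 0.10). Tjp1 (ENSMUSG00000030516, chr7:65296165-65527781, minus strand) encodes the scaffold ZO-1 and is also made by glia and neurons. It was at 23.1 to 29.3 FPKM in room air and 28.4 to 31.4 FPKM in OIR WT, overlapping, with a log2 change of 0.25 (95% interval 0.02 to 0.48). Tjp1 missed the threshold at adjusted p = 0.132 and passed it at 0.0383 when RA WT 1 was left out, the lowest of 19 other settings, which reached 0.318.

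Of the vesicle genes, Plvap passed and Cav1 did not. Plvap (ENSMUSG00000034845, chr8:71497765-71511752, minus strand) forms the diaphragms of fenestrae and caveolae and is scarce in mature barrier vessels. Plvap was at 2.16, 2.35 and 3.17 FPKM in RA WT 1 to 3 and at 5.77, 4.38 and 6.50 FPKM in OIR WT 1 to 3. All 3 retinopathy values were higher, by 2.17-fold in the mean, and Plvap rose by 0.98 (log2, SE 0.169, adjusted p = 0.00599). The gene overlaps Gtpbp3 on the opposite strand without sharing exon bases, and Gtpbp3 was at 8.17 to 12.0 FPKM. Cav1 (ENSMUSG00000007655, chr6:17306335-17341452, plus strand), the main coat protein of caveolae, was at 13.4 to 14.4 FPKM in room air and 7.76 to 16.2 FPKM in OIR WT. Its retinopathy values enclosed the room-air values, with a log2 change of -0.28 (95% interval -0.95 to 0.39, adjusted p = 0.568).

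The 5 calls held under each of 19 other settings of the processing. Without the 3 libraries low in Y-linked genes, which left 1 RA WT library, neither the 4 falls nor the 1 rise passed. The log2 change of Slco1a4 was then -2.32 (adjusted p = 0.0596), that of Slco1c1 -1.99, that of Abcb1a -1.10 and that of Plvap 1.17. Mfsd2a went from -1.08 to -0.65 (adjusted p = 0.279), and only 12 genes of the whole table passed. Over all settings the adjusted p of Slco1a4 ranged from 8.09e-05 to 0.0596 and that of Mfsd2a from 0.00757 to 0.279.

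**Figure D2:**
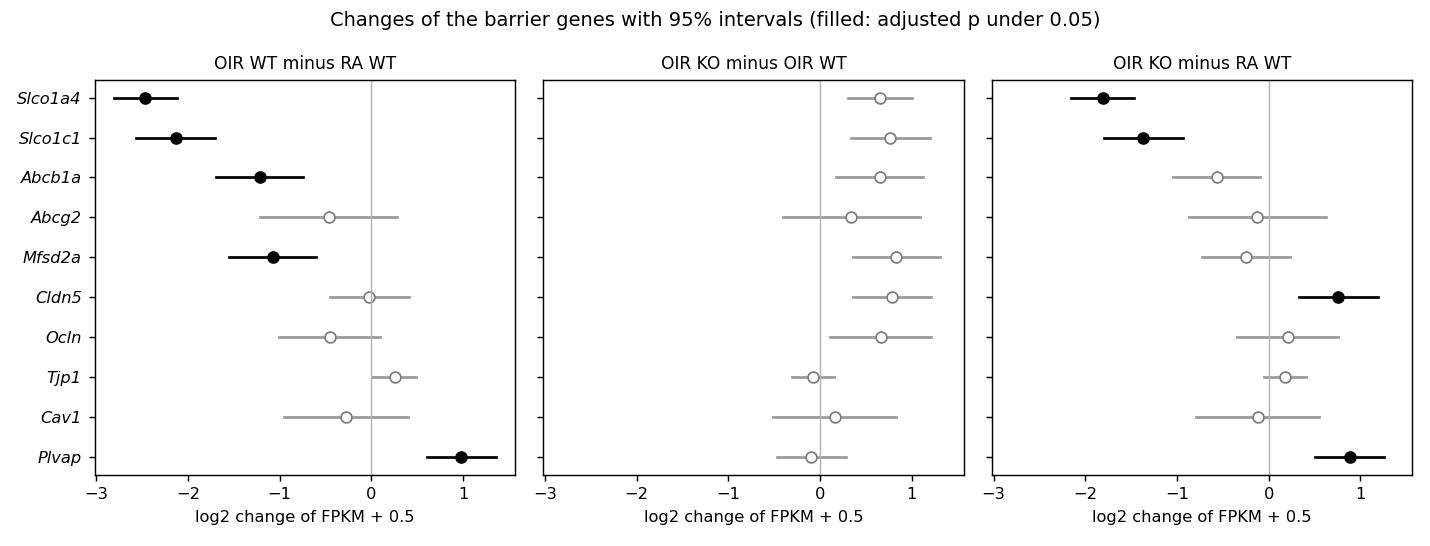
Log2 change of each of the 10 genes with its 95% interval in the 3 comparisons, filled where the adjusted p passed. Slco1a4 and Slco1c1 lie furthest below 0 in both comparisons with room air, and no point is filled in the comparison of OIR KO with OIR WT.

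Whether barrier genes differ in retinopathy without IL-19 is addressed by OIR KO and OIR WT. None of the 10 genes passed after adjustment (limma), and 0.134% of all genes did (0.0574% upward and 0.0765% downward). At an unadjusted p under 0.05, 6 members were higher in the knockout (Slco1a4, Slco1c1, Abcb1a, Mfsd2a, Cldn5 and Ocln) and 0 were lower, where 5.17% of all genes were higher and 4.75% lower. Those counts were 4 and 0 without OIR WT 2, the smallest of the settings tried, and 5 and 0 without the 3 libraries low in Y-linked genes. Groups did not overlap for 5 members, all higher in the knockout, against 9.73% of all genes higher and 7.98% lower. The median log2 difference was 0.65 for the members and -0.003 for all genes.

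The carriers lay between the other groups in the knockout. Slco1a4 was at 1.38, 1.86 and 1.67 FPKM in OIR KO 1 to 3, above every OIR WT value and below every RA WT value. Its mean was 1.90 times that of OIR WT, with a log2 difference of 0.65 (95% interval 0.31 to 1.00, unadjusted p = 0.00179, adjusted p = 0.211). Slco1c1 was at 1.35, 0.820 and 1.03 FPKM in OIR KO 1 to 3, again between the other groups without overlap. The mean was 2.51 times that of OIR WT, with a log2 difference of 0.76 (95% interval 0.33 to 1.20, adjusted p = 0.230).

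Mfsd2a and Cldn5 were also higher in the knockout without overlap. Mfsd2a was at 3.97, 2.73 and 3.40 FPKM in OIR KO 1 to 3, all above OIR WT and overlapping the room-air range of 2.87 to 4.94 FPKM. The mean was 2.01 times that of OIR WT, and the log2 difference of 0.83 (95% interval 0.36 to 1.31) had an adjusted p of 0.240. Cldn5 was at 45.1, 39.9 and 37.2 FPKM in OIR KO 1 to 3, above all 6 other libraries. The mean was 1.72 times that of OIR WT, with a log2 difference of 0.78 (95% interval 0.35 to 1.21, adjusted p = 0.223).

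Of the efflux pumps, Abcb1a was at 1.72, 2.35 and 1.62 FPKM in OIR KO 1 to 3, narrowly above the highest OIR WT value of 1.59 FPKM. Its log2 difference was 0.65 (95% interval 0.18 to 1.13, adjusted p = 0.372). Abcg2 was at 2.63, 8.37 and 3.54 FPKM in OIR KO 1 to 3, and the wide spread came from OIR KO 2. Without that library its log2 difference went from 0.34 to -0.10.

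Ocln in the knockout was at 1.99, 2.19 and 1.60 FPKM, overlapping OIR WT through its value of 1.66 FPKM in OIR WT 1, with a log2 difference of 0.66 (95% interval 0.11 to 1.21, adjusted p = 0.428). Tjp1 was at 27.6 to 30.9 FPKM and overlapped OIR WT, with an interval of -0.31 to 0.15. The vesicle genes overlapped as well. Plvap was at 5.63, 4.86 and 4.82 FPKM in OIR KO, with a log2 difference of -0.10 (95% interval -0.48 to 0.28), and Cav1 ranged from 8.60 to 18.5 FPKM, with an interval of -0.52 to 0.83. Cav1 also took its highest value in OIR KO 2.

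Among summed levels of cell type markers, the glial sum alone differed without overlap between the genotypes. The summed level of 15 astrocyte and Müller glia markers was 2016 to 2204 FPKM in OIR KO and 1447 to 1926 FPKM in OIR WT, with no overlap. It was 2387 to 2983 FPKM in RA WT. Such sums are set mostly by their most abundant genes. Glul and Apoe, the most abundant glial markers, each overlapped between the genotypes, Glul at 558.6 to 870.0 and 372.9 to 661.8 FPKM. Of 14 glial markers tested, 4 were higher in every knockout library and 1, Sox9, was lower. Of all genes, 9.73% and 7.98% were. The summed level of 22 pan-endothelial genes was 211.7 to 316.6 FPKM in OIR KO, 202.1 to 278.5 FPKM in OIR WT and 142.0 to 172.6 FPKM in RA WT. Summed levels of 15 pigment epithelium markers overlapped in all groups, at 81.6 to 151.3, 50.0 to 106.7 and 92.1 to 155.1 FPKM in the same order. Summed levels of 15 pericyte and smooth muscle markers were 440.4 to 560.8, 522.7 to 627.0 and 328.3 to 379.1 FPKM. Large parts of these sums were Vtn, at means of 273.4, 293.7 and 290.3 FPKM, and Ndufa4l2, at 111.7, 141.3 and 5.36 FPKM. No marker of these 4 lists was listed at 0 in all libraries, and their part in the members' differences was not tested.

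OIR KO and RA WT differ in both treatment and genotype, and this comparison shares its libraries with the other 2. In it, 2 members fell (Slco1a4 and Slco1c1), 2 rose (Cldn5 and Plvap) and 6 did not pass, where 5.69% of all genes fell and 4.75% rose (10.4% in all). Groups did not overlap for 2 members on the higher side and 3 on the lower, against 17.3% and 15.4% of all genes. Slco1a4 fell by 1.81 (log2, adjusted p = 0.000868), a 4.27-fold lower mean. Slco1c1 fell by 1.37 (adjusted p = 0.00430), a 3.30-fold lower mean. Abcb1a was lower in all knockout libraries but did not pass, at -0.57 (adjusted p = 0.119).

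Plvap rose by 0.88 (adjusted p = 0.0123) and was 1.99 times the room-air mean, with every retinopathy value above every room-air value. Without OIR KO 1 its adjusted p was 0.0507, the highest over 19 other settings, which went down to 0.0109. Cldn5 rose by 0.76 (adjusted p = 0.0360), 1.68 times the room-air mean, again without overlap. This call was lost when RA WT 1, RA WT 3, OIR KO 1, OIR KO 2 or OIR WT 3 was left out (adjusted p = 0.0655, 0.0605, 0.113, 0.0946 and 0.0532). It was also lost with no filter on low values (0.0589) and with a replicate block (0.0845), and the lowest value over the 19 settings was 0.0266. Mfsd2a overlapped room air, with a log2 difference of -0.25 (95% interval -0.72 to 0.23). No call among the 10 remained without the 3 libraries low in Y-linked genes, which left 1 RA WT library and 5 genes of the whole table passing. The log2 changes were then -1.58 for Slco1a4, -1.35 for Slco1c1, 1.11 for Cldn5 and 1.01 for Plvap.

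A vessel gene can move with the amount of vessel RNA in the tissue, so each member was also expressed relative to the mean log2 level of the 22 pan-endothelial genes of the same library. That mean was 2.05, 2.38 and 2.36 in RA WT, 2.85, 2.58 and 3.02 in OIR WT, and 2.97, 3.30 and 2.75 in OIR KO. It was higher in OIR WT than in RA WT by 0.55 on the log2 scale, without overlap, and in OIR KO than in OIR WT by 0.20, with overlap. With 3 libraries against 3 the exact two-sided permutation test cannot go below p = 0.1, and none of these values could pass.

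Relative to endothelial genes, 8 of the 10 members were lower in every OIR WT library than in every RA WT library, where 57.7% of all genes were lower in the same way because the reference itself was higher. Slco1a4 was at -3.02, Slco1c1 at -2.68, Abcb1a at -1.77, Mfsd2a at -1.63, Abcg2 at -1.02, Ocln at -1.01, Cav1 at -0.83 and Cldn5 at -0.58 on this log2 scale (exact p = 0.1, adjusted p = 0.15 over members and comparisons, for each). Cldn5 FPKM ranges overlapped between these groups, whereas its level relative to the endothelial mean was lower in retinopathy. Tjp1 overlapped at -0.30 (exact p = 0.4). Plvap alone was higher in all OIR WT libraries, at 0.43 (exact p = 0.1), where 3.72% of all genes were.

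Between the genotypes, Mfsd2a (0.64) and Cldn5 (0.59) were higher in every knockout library relative to endothelial genes (exact p = 0.1 for each). So were 0.58% of all genes. Mfsd2a was so only narrowly, at -1.61 in OIR KO 2 against -1.635 in OIR WT 3. With the mean of Pecam1, Cdh5 and Tie1 as reference, both genes overlapped through OIR KO 2. Relative to the mean of 22 genes, Plvap was lower in every knockout library (-0.29, exact p = 0.1), as 12.0% of all genes were. The carriers overlapped between genotypes here, Slco1a4 at 0.46 and Slco1c1 at 0.57 (exact p = 0.3 for each), as did the remaining 5. Between OIR KO and RA WT, Cldn5 (0.01) and Plvap (0.14) overlapped on this scale, and the other 8 members were lower in every knockout library, as 73.7% of all genes were (1.55% were higher).

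**Figure D3:**
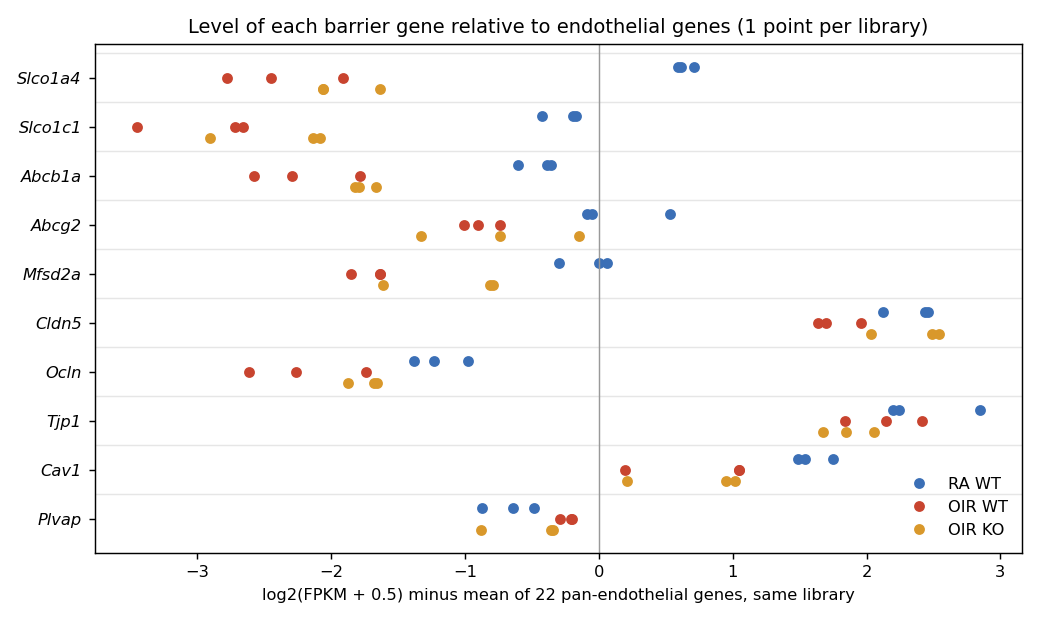
Level of each member relative to the mean log2 level of 22 pan-endothelial genes, by library, in log2 units. Slco1a4 and Slco1c1 lie lower in both retinopathy groups than in RA WT, and Mfsd2a and Cldn5 lie higher in OIR KO than in OIR WT without overlap.

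Other genes of the barrier were read from lists of transporters, junctions, vesicles and signals. Of 33 further barrier transporters, 30 were tested between OIR WT and RA WT. Among them 4 rose, 4 fell and the median log2 change was -0.18, where 8.04% of all genes rose and 7.92% fell. Slc22a8, the organic anion transporter OAT3, went from 3.67 ± 0.528 to 0.953 ± 0.363 FPKM and fell by 1.55 (log2, adjusted p = 0.00338). Slc5a6, the vitamin carrier for biotin and pantothenate, went from 8.18 to 4.83 FPKM and fell by 0.71 (adjusted p = 0.00411). Slc2a1, the glucose transporter GLUT1, which is also made by retinal glia and photoreceptors, went from 103.7 to 185.4 FPKM and rose by 0.83 (adjusted p = 0.00534). Abcc1, an efflux pump, went from 8.98 to 14.9 FPKM and rose by 0.70 (adjusted p = 0.0154). In whole retina these transporter genes thus changed in both directions, and which cells the changes came from was not tested.

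Among 25 further junction genes, 6 rose, 2 fell and the median log2 change was 0.12. Of all genes, 8.04% rose and 7.92% fell. Cdh5, the adherens junction cadherin of endothelium, rose from 3.74 to 7.23 FPKM (log2 0.87, adjusted p = 0.0205). Marveld3, a tight junction membrane protein, rose by 1.21 (adjusted p = 0.0257) and F11r, the junctional adhesion molecule A, by 0.64 (adjusted p = 0.0347). Cgnl1, the junction plaque protein paracingulin, fell by 0.59 (adjusted p = 0.0455). Cdh5 also stands on the pan-endothelial list.

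The shares of all genes to set beside the next counts are 8.04% risen and 7.92% fallen. Of 11 tested caveola and vesicle genes, 1 rose and 2 fell, with a median log2 change of 0.08. The coat protein Cavin3 rose from 5.86 to 12.0 FPKM (log2 0.98, adjusted p = 0.0278), while Cavin2 fell by 0.76 (adjusted p = 0.0431) and Ehd3, a membrane-shaping ATPase, by 0.42 (adjusted p = 0.0288). Of 18 genes of the Norrin and Wnt barrier programme, 2 rose and 0 fell, with a median of -0.05. Foxf2, a transcription factor of brain pericytes, rose by 0.74 (adjusted p = 0.0279) and Ppard, a lipid-sensing nuclear receptor, by 0.65 (adjusted p = 0.0167). Of 10 tested Abcb and Abcg genes, 0 rose and 2 fell, 1 of them Abcb1a.

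The cell type lists moved in the same libraries. Between RA WT and OIR WT, 8.04% of all genes rose and 7.92% fell. Of 22 pan-endothelial genes, 8 rose and 1 fell, with a median log2 change of 0.58. Mcam, an endothelial and pericyte adhesion molecule, went from 3.98 to 22.1 FPKM and rose by 2.32 (adjusted p = 0.00235). Tek was the 1 that fell, from 2.225 to 0.9185 FPKM (log2 change -0.95, adjusted p = 0.0154). Every OIR KO library was above every OIR WT library for Tek, at a mean of 1.84 FPKM. Ptprb was also lower in every OIR WT library, at a log2 change of -1.08, but did not pass (adjusted p = 0.0740). Of 14 tested pericyte and smooth muscle genes 8 rose and 0 fell, and of 14 tested astrocyte and Müller glia genes 4 rose and 8 fell. Gfap rose by 3.25 and Glul fell by 1.29. Of 12 tested pigment epithelium genes, 0 rose and 1 fell.

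Between OIR KO and OIR WT none of these list genes passed. At an unadjusted p under 0.05, 8 of the 30 transporters were higher in the knockout and 1 lower, as were 1 and 0 of 25 junction genes, 1 and 0 of 11 vesicle genes and 2 and 0 of 18 Wnt programme genes, where 5.17% of all genes were higher and 4.75% lower. The same counts were 2 and 0 for pan-endothelial genes, 1 and 2 for pericyte genes, 6 and 1 for glial genes and 1 and 0 for pigment epithelium genes. Slc38a5, an amino acid transporter named here after its values were seen, was at 1.27, 1.19 and 1.79 FPKM in room air, at 0.899, 0.734 and 0.432 FPKM in wild-type retinopathy, and at 3.17, 1.80 and 2.01 FPKM in knockout retinopathy. The knockout values were above all others, with a log2 difference of 1.24 from OIR WT (unadjusted p = 0.000274, adjusted p = 0.0933).

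Between OIR KO and RA WT, 4.75% of all genes rose and 5.69% fell. In the lists, 1 of the 30 transporters rose and 1 fell, 6 junction genes rose and 0 fell, and 1 vesicle gene rose and 1 fell. Slc3a2, a subunit of amino acid exchangers, rose by 0.54 and Slc5a6 fell by 0.41. Cdh5 rose by 1.31, Marveld2, the tight junction protein tricellulin, by 0.80 and F11r by 0.78 (log2). Cavin3 rose by 0.92 and Ehd3 fell by 0.47. Of the Wnt programme genes 2 rose (Foxf2 by 1.11 and Sox18, an endothelial transcription factor, by 1.03) and 0 fell, as did 12 and 0 of the pan-endothelial, 5 and 0 of the pericyte, 0 and 3 of the glial and 0 and 0 of the pigment epithelium genes.

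**Figure D4:**
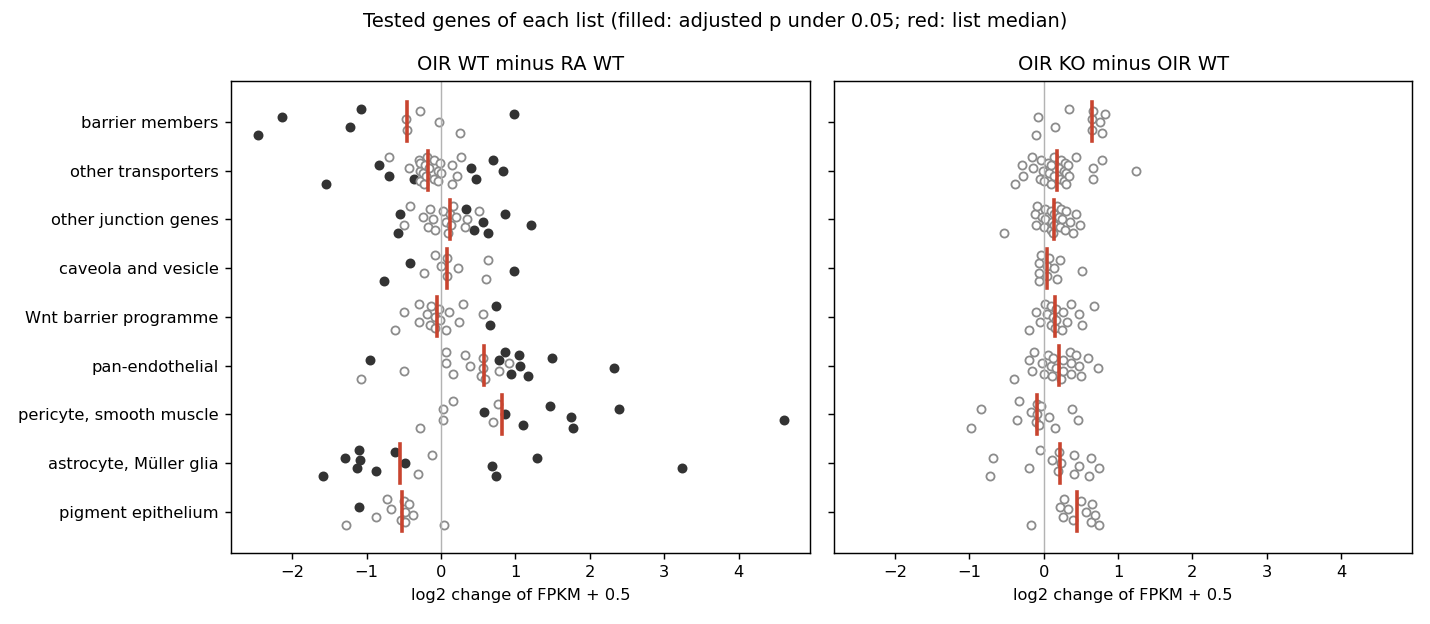
Log2 change of every tested gene in the barrier and cell type lists, for OIR WT against RA WT and OIR KO against OIR WT, filled where the adjusted p passed, with red lines for list medians. Further transporters scatter on both sides of 0 in OIR WT against RA WT, while pan-endothelial and pericyte genes lie mostly above 0.

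The members fell into different patterns over the 9 libraries, described here by Pearson's r, which reflects the group differences that all 9 share. Slco1a4 ran with Slco1c1 (r = 0.964) and Abcb1a (0.859) and against Plvap (-0.932), while Cldn5 ran with Ocln (0.76) and not with Slco1a4 (-0.205). The most similar genes were sought among kept genes with a mean of at least 1 FPKM. Provisional symbols, and all symbols that start with C and a digit, were left out. Those most like Slco1a4 were Zdhhc14 (0.984), Cpne7 (0.981) and Ly6c1 (0.979), and those most like Slco1c1 were Six6 (0.990), Ly6c1 (0.977) and Kcnj10 (0.970). For Cldn5 they were B4galnt4 (0.952) and Foxq1 (0.95). For Plvap they were N4bp3 (0.980), Ormdl3 (0.971) and Mcm6 (0.968).

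The pair of Plvap and Mfsd2a, picked after the values were seen and therefore given without a test, separated the 3 groups. The ratio of their FPKM values was 0.751, 0.476 and 0.683 in RA WT 1 to 3, 3.86, 3.09 and 3.09 in OIR WT 1 to 3, and 1.42, 1.78 and 1.42 in OIR KO 1 to 3. Plvap exceeded Mfsd2a in all 6 retinopathy libraries and in none of the 3 room-air libraries, and no knockout ratio reached a wild-type retinopathy ratio. Plvap by itself overlapped between the genotypes, and Mfsd2a did not. The ratio of Plvap to Slco1a4 did not separate the genotypes, at 4.07 in OIR KO 1 and 4.02 in OIR WT 2. That of Plvap to Cldn5 overlapped between OIR KO and RA WT, at 0.122 in OIR KO 2 and 0.123 in RA WT 1.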

How the data were processed

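Retinal RNA was sequenced in 9 libraries. The authors deposited 1 table of FPKM values, and per the submitters' processing notes HISAT2 and GRCm38 were used. Neither the version nor the quantifier, annotation release or strand setting is given in the sources used here. FPKM values are not counts: 29.9 to 37.4% of low values came within 0.02 of whole multiples of the smallest step, too few to recover reads, and depth is unknown. Groups came from the labels.

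Genes with at least 0.5 FPKM in at least 3 libraries were tested on log2(FPKM + 0.5) with limma 3.58.1 in R 4.3.3 (1 mean per group, all 9 libraries, trend and robust, two-sided, Benjamini-Hochberg over 15678 genes, threshold 0.05), after a test on simulated data. Levels relative to endothelial genes used exact permutation tests. Members and gene lists were chosen with earlier results of these data known. Text names all members, up to 4 called genes with a mean of at least 1 FPKM per list and comparison by size of change (fewer are printed for the cell type lists), near paralogues and the 3 genes most like 4 members; a few genes this rule names are not reported here. Positions are from GENCODE M21 on GRCm38, matched by Ensembl ID. Alternatives changed the pseudocount, filter, scaling, variance model, covariates, block and libraries.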

Additional observations from a re-analysis of the deposited data

How the results depend on the processing

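Without knockout mice in room air, with 3 libraries a group and unknown depth, small differences of low genes such as Ocln could not be resolved. The replicate numbers share no stated source, and same-numbered libraries deviated together in only 1 of 9 pairs (r over 0.1; range -0.353 to 0.134); with a replicate block 8 genes passed in OIR KO against OIR WT (21 without it), 1081 in OIR KO against RA WT (1636 without it), and 1 member rose instead of 2 in the latter. Leaving out 1 library at a time gave 1031 to 2814, 11 to 42 and 709 to 1791 genes passing in OIR WT against RA WT, OIR KO against OIR WT and OIR KO against RA WT. In the first, counts moved by over 1.5 times without OIR WT 1 (1031), OIR WT 3 (1331), RA WT 3 (1414) or RA WT 2 (1471). In the second they did so without OIR KO 1 (12), OIR KO 2 (42), or OIR KO 3, OIR WT 1 or OIR WT 3 (11 each), and in the last without RA WT 3 (711), OIR KO 1 (709) or OIR KO 2 (725). Risen members were 1 to 2 in the first and 0 to 2 in the last. A covariate from Y-linked genes gave 1581 genes in the first (2503 without it) and a log2 change of 0.10 for Cldn5. A filter at 1 FPKM and a fit without trend or robust weighting each gave 13 genes in OIR KO against OIR WT. With no filter 1 member rose in OIR KO against RA WT.

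Leaving out the 3 libraries low in Y-linked genes was chosen after seeing the data. It left RA WT with 1 library, assumed to vary like the others, and gave 12, 8 and 5 genes in the same order, with 0 members risen and 0 fallen. Signs then reversed for Cldn5 in OIR WT against RA WT (0.41) and, in OIR KO against RA WT, for Abcg2 (0.002), Mfsd2a (0.073), Tjp1 (-0.005) and Cav1 (0.21), none of them past the threshold. Leaving out 1 library at a time also reversed signs of uncalled log2 changes, which ranged from -0.24 to 0.13 for Cldn5 in OIR WT against RA WT. In OIR KO against OIR WT they ranged from -0.10 to 0.65 for Abcg2, -0.11 to 0.43 for Cav1 and -0.25 to 0.015 for Plvap, and in OIR KO against RA WT from -0.57 to 0.19 for Abcg2 and -0.38 to 0.15 for Cav1.

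Relative to endothelial genes, the list median as reference gave -0.053 for Abcg2 in OIR KO against OIR WT, and in OIR KO against RA WT -0.29 for Cldn5 and -0.17 for Plvap. The mean of Pecam1, Cdh5 and Tie1 gave -0.10, -0.42 and -0.29, all opposite in sign to the values with the mean of 22 genes. With that reference Mfsd2a and Cldn5 also overlapped between OIR KO and OIR WT. Leaving out 1 library gave -0.15 to 0.44 for Abcg2 and -0.32 to 0.22 for Cav1 in OIR KO against OIR WT, and -0.094 to 0.17 for Cldn5 in OIR KO against RA WT. The cause of these changes was not tested.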
